A study of Danio rerio with 24 samples.

Results

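Proteins made for export from the liver enter the endoplasmic reticulum and then leave it in coated vesicles, and the 50 genes described here encode machinery of these steps. They were chosen by zebrafish gene symbol from the Ensembl count table, by name patterns for the signal recognition particle (*srp*), the Sec61 translocon (*sec61*, *sec62*, *sec63*), the translocon-associated protein complex (TRAP, *ssr*), signal peptidase (*spcs*, *sec11*), the COPII and COPI coats, the Sec22 SNARE proteins and the p24 cargo receptors (*tmed*). The patterns matched 54 of the 32105 genes listed. Of these, 50 averaged 10 or more counts in the 24 libraries, as did 11974 genes in all. The remaining 4, *sec22c*, *tmed1a*, *tmed4* and *tmed6*, were below that minimum and were not tested. The rule used names and mean counts over all groups, not differences between groups.

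The study asked whether a diet rich in arachidonic acid (ARA), an omega-6 fatty acid, given to parent zebrafish changes the liver transcriptome of the parents (F0) and of their adult progeny (F1). All fish were wildtype AB males, and each library was made from a pool of 6 livers of one tank. Each of the 4 groups had 6 such libraries. The F0 control and F0 high ARA fish received the low-ARA control feed or the high ARA feed from 27 days post fertilization (DPF), were mated at 97 DPF and were sampled at 154 to 156 DPF. F1 control and F1 high ARA fish descended from these groups, were both raised on the control feed and were sampled at 140 to 142 DPF. Age and generation therefore differed together and cannot be told apart, and in F1 "high ARA" names only what the parents ate. Between the high ARA groups of F0 and F1 the feed eaten by the sampled fish differed as well. A pool of livers also does not show how single fish varied.

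A signal peptide on a growing protein is bound by the signal recognition particle and handed to the Sec61 channel, through which the chain enters the endoplasmic reticulum with help from TRAP, while signal peptidase removes the signal peptide. Folded cargo then leaves in vesicles with a COPII coat, built from an inner Sec23 and Sec24 layer and an outer Sec13 and Sec31 layer at sites organized by Sec16. COPI vesicles carry receptors and escaped proteins back from the Golgi, p24 proteins travel in both kinds of vesicle as cargo receptors, and Sec22 takes part in vesicle fusion. These roles are known mainly from yeast and mammalian cells. Hepatocytes are known for heavy use of this route, since they secrete most plasma proteins. Below, the first 4 classes are called translocation genes (20 members), COPII and COPI are called coat genes (19), and Sec22 and p24 are called vesicle proteins (11). Members were put in classes by gene symbol alone. Whether each one shares the role of its class, such as *tmed8* in p24 or *sec22a* in Sec22, was not checked.

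Total counts on Ensembl genes were between 5144880 and 15659321 per library, and the F1 high ARA totals (8636978 to 11800367) did not overlap those of F1 control, which were smaller (5144880 to 8493413). Over the 60 pairs of libraries of one group, chi-square per degree of freedom was at least 8.34, so no 2 libraries of a group agreed within sampling noise. The 7 hepatocyte markers were abundant in every library and summed to between 77189 and 109000 counts relative to library size (CPM, TMM-scaled), and 5 testis markers summed to at most 5.97 CPM. Markers of neighbouring organs were present in unequal amounts. For 13 pancreas acinar markers the sum was 647 to 8089 CPM, and for 9 enterocyte markers it was 7.06 to 2678 CPM, with 10.6 to 2678 in F0 control, 7.06 to 1340 in F0 high ARA, 19.1 to 796 in F1 control and 50.6 to 106 in F1 high ARA. No marker in these lists was at 0 in all libraries.

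The members differed widely in level, and the genes for the membrane channel and its partners were the most abundant. Levels between genes are given as CPM per kb of annotated exon, averaged over the 24 libraries (SD over all 24, n = 24). *sec61a1a*, the channel subunit itself, had the highest level with 186 ± 26.3 CPM per kb, and ranged from 137 to 234 among the libraries. It was followed by *ssr2* (119 ± 18.7) and *ssr4* (105 ± 17.4), both TRAP subunits. All 4 TRAP genes ranked among the first 6, from 73.3 CPM per kb for *ssr1* upwards. The COPII gene *sec23b*, whose product activates the GTPase of the coat, ranked between *ssr4* and *ssr3* with 86.4 ± 19.6 CPM per kb.

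Subunits of one complex were close to each other in some classes and far apart in others. The 4 signal peptidase genes lay between 19.6 (*spcs2*) and 22.2 (*spcs1*) CPM per kb. The 7 COPI genes lay between 12.97 (*copg2*) and 29.2 (*cope*) CPM per kb, and the 6 signal recognition particle genes between 7.68 (*srp19*) and 22.3 (*srp9*). COPII genes, by contrast, ran from 0.47 CPM per kb for *sec31b* to the level of *sec23b*, with a median of 4.94. Translocon genes reached from 10.4 (*sec63*) to the level of *sec61a1a*, p24 genes from 1.44 (*tmed8*) to 60.99 (*tmed10*) and Sec22 genes from 5.08 (*sec22a*) to 8.72 (*sec22ba*). The length used depends on the annotation, and the mean counts of 4 members differed by more than 1.5 times between the annotations. These were *sec62* (1206 on Ensembl and 449 on RefSeq genes), *srp68* (193 and 388), *sec31a* (123 and 219) and *ssr1* (555 and 868).

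**Figure D1:**
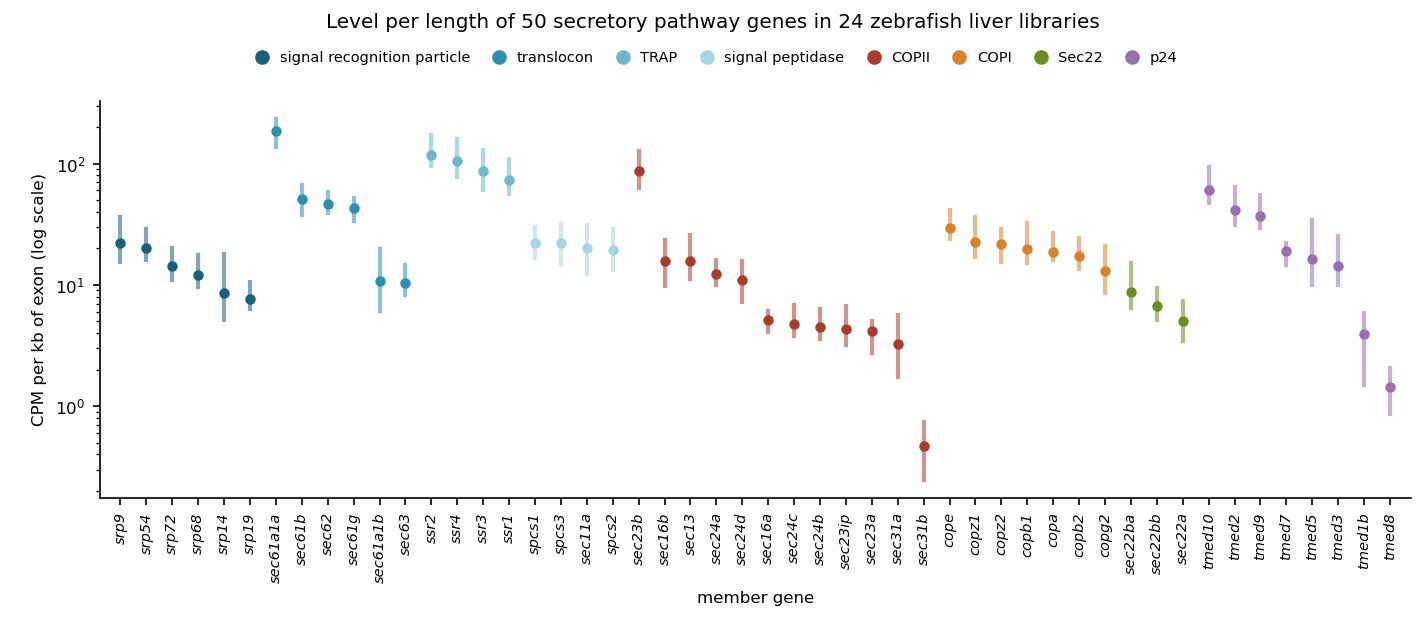
Mean level of each of the 50 members over 24 libraries in CPM per kb of exon on a log scale (points), with the lowest and highest library (bars), coloured by class. The *sec61a1a* point at 186 CPM per kb and the 4 TRAP points stand at the top, and *sec31b* at 0.47 is the lowest.

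Where paralogs were counted apart, one of the pair usually carried most of the reads. The ratio of *sec61a1a* to *sec61a1b* per kb was between 7.39 and 29.1 in single libraries (median 18.5), and that of *sec23b* to *sec23a* was between 13.6 and 37.6 (median 20.1). For the outer coat genes, *sec31a* exceeded *sec31b* by 2.73 to 14.4 times, and for the exit site organizers *sec16b* exceeded *sec16a* by 1.74 to 5.25 times. The Sec22 paralogs *sec22ba* and *sec22bb* were near each other, with ratios from 0.77 to 2.19, as were *copz1* and *copz2* (0.67 to 1.60). Reads that mapped to several places were not counted, so that reads shared by close paralogs are missing from both.

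Over all 24 libraries the most variable member was *tmed5*, a p24 receptor, with a coefficient of variation of 39.3%, before *srp14* (34.1%), *sec31a* (33.1%) and *sec61a1b* (31.3%). The least variable were *sec62* (10.2%), *sec61g* (11.3%), *tmed7* (12.0%) and *sec16a* (12.5%). The highest library was 3.51 times the lowest for *srp14* and 1.48 times the lowest for *sec62*. The largest such ratio was that of *tmed1b*, 3.94, with 1.58 CPM in F1 control replicate 7, and the smallest that of *sec16a*, 1.475.

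Taken as a whole, the members were highest in F1 high ARA livers. Their summed level was 2605, 2732 and 2988 CPM in F0 control (lowest, median and highest library), 2626, 2900 and 3092 in F0 high ARA, 2739, 2836 and 3081 in F1 control, and 3049, 3214 and 3536 in F1 high ARA. The F1 high ARA libraries overlapped the others only at the lower edge of their range. Of the 50 members, 38 had their highest group mean in F1 high ARA (76.0%), where 32.6% of the 11974 genes above the count minimum did. This held for 16 of 20 translocation genes, 13 of 19 coat genes and 9 of 11 vesicle proteins, and only 1 member had its lowest mean there. In these pools, fewer cells of a type and less RNA per cell cannot be told apart.

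The classes were compared by an index, the mean over a class of log2(CPM + 0.5) after subtracting each gene's mean over the 24 libraries. For translocation genes the index was -0.16, -0.11 and -0.01 in F0 control (lowest, median, highest), -0.20, -0.13 and 0.05 in F0 high ARA, -0.03, -0.01 and 0.19 in F1 control, and -0.04, 0.22 and 0.35 in F1 high ARA. Coat genes were at -0.21, -0.14 and 0.04 in F0 control, at -0.04, 0.03 and 0.11 in F0 high ARA, at -0.18, -0.05 and -0.02 in F1 control, and at -0.02, 0.15 and 0.43 in F1 high ARA. Vesicle proteins were at -0.14, -0.07 and 0.01 in F0 control, at -0.16, -0.09 and 0.08 in F0 high ARA, at -0.24, -0.03 and 0.21 in F1 control, and at -0.09, 0.15 and 0.39 in F1 high ARA.

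Translocation and coat genes thus did not follow the same order of groups, as a description without a test. The median of the translocation index was lower in both F0 groups than in both F1 groups, while the median of the coat index was lower in both control groups than in both high ARA groups. The coat index minus the translocation index was -0.09, -0.07 and 0.13 in F0 control, 0.02, 0.14 and 0.16 in F0 high ARA, -0.26, -0.07 and 0.002 in F1 control, and -0.24, 0.02 and 0.20 in F1 high ARA. It was above 0 in all 6 F0 high ARA libraries, and the 4 groups overlapped except that F0 high ARA lay above F1 control. In F0 the COPII index was -0.25 to -0.01 in control and 0.02 to 0.21 in high ARA, without overlap, whereas the COPI index was -0.19 to 0.13 and -0.16 to 0.03. In F1 both coats were higher in high ARA on average, COPII with means of -0.09 and 0.14 and COPI with means of -0.04 and 0.21, and both overlapped between the groups.

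**Figure D2:**
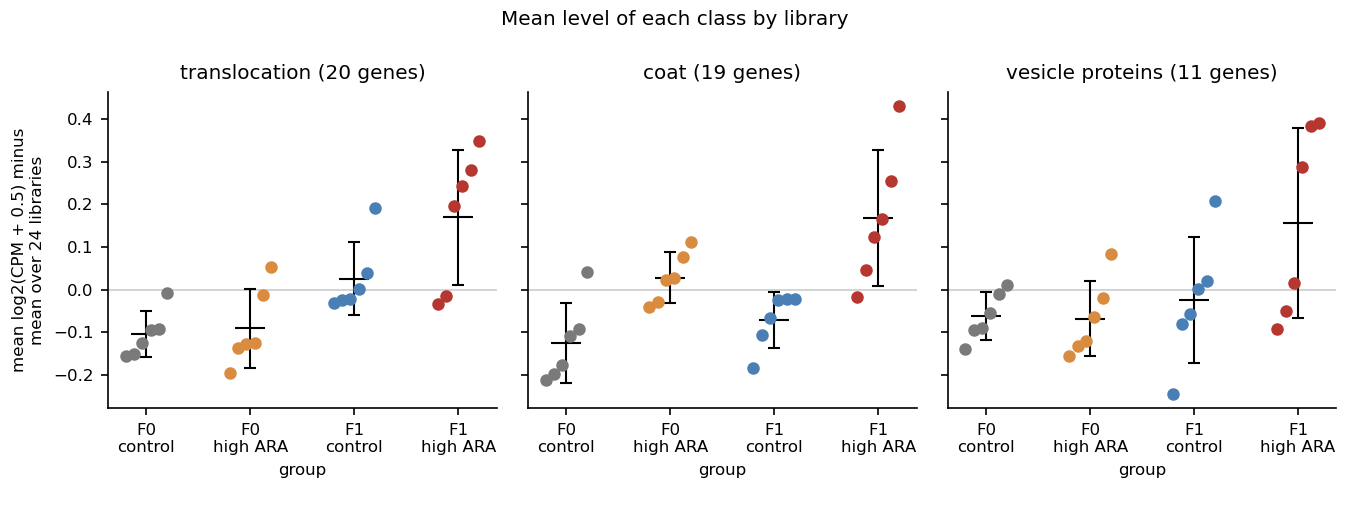
Index of translocation genes (20), coat genes (19) and vesicle proteins (11) in each library, as mean log2(CPM + 0.5) minus the mean over 24 libraries, by group (points, libraries; bars, mean and SD of 6 libraries). The highest points are F1 high ARA libraries in all 3 panels, and that group also spreads most.

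The spread within F1 high ARA was wide because its libraries were unlike each other. Over all 50 members the index was 0.08, 0.03 and 0.03 in F1 high ARA replicates 13, 14 and 15, and 0.32, 0.35 and 0.19 in replicates 16, 17 and 18. Replicate 17 was the highest of all 24 libraries for 17 of the 50 members (10.9% of all 11974 genes), replicate 16 for 9 (3.43% of all genes) and replicate 18 for 7 (4.23%), and replicates 13, 14 and 15 for 0. The members took 0.415% of all counts in replicate 17 and between 0.249% and 0.319% in all F0 and F1 control libraries. Replicate 17 also had the smallest hepatocyte marker sum of all libraries (77189 CPM) and the smallest acinar sum of its group (1656 CPM); the part of these in the member levels was not tested. In F1 control, replicate 12 was the highest of its group for 22 members, and its acinar sum of 8089 CPM was the largest of all libraries.

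The first comparison asks what the high ARA feed did in the parents, and no member was called. At an adjusted p under 0.05 from edgeR's quasi-likelihood test, 0 of 50 members differed between F0 high ARA and F0 control, as did 0% of 12194 genes. At an unadjusted p under 0.05 there were 6 members, all higher in high ARA, and 906 of all genes. DESeq2 called 1 member, *sec31a*, and 30 of all genes. The 5 members with the smallest p were all COPII genes, *sec31a*, *sec24d*, *sec24a*, *sec16a* and *sec31b*.

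*sec31a*, an outer COPII coat gene, was at 9.11, 11.7 and 15.9 CPM in F0 control (lowest, median, highest) and at 16.6, 17.5 and 24.6 CPM in F0 high ARA. The groups did not overlap, and it was the only member of which this was true (1 of 50 higher beside 0.32% of all genes, and 0 lower beside 0.197%). Its log2 fold change was 0.67 (edgeR adjusted p = 0.36, SE 0.153). On RefSeq genes, where it had more reads, the log2 fold change was 0.38 (adjusted p = 0.53). Without the 6 libraries with over 500 CPM of enterocyte markers it was 0.44 with 3 libraries in each group. *sec31b* had a log2 fold change of 0.60 (adjusted p = 0.594, SE 0.219) at a level of 1.84 ± 0.439 CPM in F0 control and 2.79 ± 0.663 CPM in F0 high ARA (SD, n = 6 each).

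Among the inner coat genes, *sec24d* was at 27.5, 35.1 and 44.5 CPM in F0 control and 35.5, 49.1 and 50.7 CPM in F0 high ARA. F0 high ARA replicate 13 alone reached into the control range, and the difference on the log2 scale was 0.39 (edgeR adjusted p = 0.481, SE 0.121). *sec24a* (0.29, SE 0.0975) and *sec16a* (0.25, SE 0.0884) had smaller differences with adjusted p of 0.525 and 0.586. The Sec24 products choose cargo for the vesicle. Of the 12 COPII genes 11 had a log2 fold change above 0 and their median was 0.19, beside medians of -0.02 for the 7 COPI genes, 0.03 for translocation genes and -0.02 for all genes tested, of which 47.1% were above 0. Acinar markers were above 0 for 13 of 13 genes (median 0.47) and enterocyte markers for 0 of 7 (median -0.68) in the same comparison. Genes of stress or handling were above 0 for 3 of 3 tested (median 0.58), and their part in the member values was not tested. The COPII median was 0.16 with the acinar score of each library as a covariate, 0.20 with the enterocyte score and 0.16 without the libraries over 500 CPM of enterocyte markers. Under these 3 settings *sec31a* was at 0.71, 0.67 and 0.44, *sec24d* at 0.41, 0.38 and 0.34, *sec24a* at 0.33, 0.29 and 0.16, and *sec16a* at 0.31, 0.25 and 0.17.

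In the progeny, all fed the control feed, coat genes again held 4 of the 5 smallest p, 3 of them COPI genes. Between F1 high ARA and F1 control 0 of 50 members were called, beside 1.93% of 11690 genes (0.932% higher and 1% lower). An unadjusted p under 0.05 was found for 13 of 50 members, all of them higher in high ARA. Of all 11690 genes it was found for 2311, of which 1094 were higher. The log2 fold change was above 0 for 43 of 50 members, beside 50.6% of all genes. The median was 0.28 for the 12 COPII genes, 0.34 for the 7 COPI genes, 0.10 for translocation genes and 0.23 for vesicle proteins, where that of all genes was 0.005.

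*copb2*, the beta-prime subunit of COPI, was at 56.3, 63.2 and 88.4 CPM in F1 control and 80.2, 89.6 and 103 CPM in F1 high ARA. The groups overlapped through F1 control replicate 9 alone. Its log2 fold change was 0.45 (edgeR adjusted p = 0.069, SE 0.121). *copb1*, the beta subunit, was at 53.4, 58.3 and 66.4 CPM in F1 control and 62.1, 76.2 and 107 CPM in F1 high ARA, where replicates 16 and 17 were highest. The log2 fold change was 0.47 (adjusted p = 0.0776, SE 0.129).

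*copg2*, the gamma subunit, was the only member whose F1 groups did not overlap (1 of 50, beside 1.04% of all genes higher without overlap, and 0 lower beside 1.29%). It was at 25.7, 35.7 and 37.5 CPM in F1 control and 40.0, 44.4 and 62.8 CPM in F1 high ARA, with a log2 fold change of 0.46 (edgeR adjusted p = 0.0795, SE 0.128). The study itself listed human orthologues of these 3 COPI genes from these same libraries, so their values here are no independent evidence. The other COPI genes had log2 fold changes of 0.34 (*copa*), 0.22 (*cope*), 0.09 (*copz1*) and -0.18 (*copz2*).

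*sec31a* again had one of the larger values, at 7.70, 10.6 and 12.6 CPM in F1 control and 11.9, 15.1 and 25.3 CPM in F1 high ARA. Its log2 fold change was 0.70 (edgeR adjusted p = 0.0797, SE 0.195), beside 0.67 in the parents, and the interaction on 24 libraries was 0.03 (unadjusted p = 0.905). On RefSeq genes the values for *sec31a* were 0.63 in the progeny (adjusted p = 0.104) and 0.38 in the parents. *tmed5* was at 17.4, 25.9 and 27.6 CPM in F1 control and 21.4, 40.5 and 56.6 CPM in F1 high ARA, with a log2 fold change of 0.69 (adjusted p = 0.109, SE 0.22). Its high ARA libraries ranged over more than the distance between the group medians.

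Calls in this comparison depended on the test. DESeq2 called 4 members (*copb1*, *copb2*, *copg2* and *sec31a*, adjusted p = 0.0135 to 0.0311), beside 5.22% of all genes. A fit of all 24 libraries called 5, adding *copa*, beside 2.91% of all genes. Without 1 library at a time edgeR called between 0 and 2 members. These were *copb1* and *tmed5* without F1 high ARA replicate 13, *copb2* without F1 control replicate 9, and *sec31a* without F1 high ARA replicate 18. Of all genes, 0.682% to 2.51% were called in these fits. Acinar markers moved with the groups, with 0 of 13 above 0 and a median log2 fold change of -0.65, and so did enterocyte markers (0 of 5 tested above 0, median -2.87). With the acinar score of each library as a covariate the log2 fold changes of *copb1*, *copb2* and *copg2* were 0.43, 0.39 and 0.44, and with the enterocyte score they were 0.50, 0.54 and 0.50.

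Between the generations on the control lineage, genes of the entry steps, which are 20 of the 50 members, held 3 of the 5 smallest p. Between F1 control and F0 control 0 of 50 members were called by edgeR, beside 2.34% of 11729 genes (0.759% higher and 1.59% lower). Its unadjusted p was under 0.05 for 10 of 50 members (8 higher and 2 lower in F1) and for 2123 of 11729 genes. DESeq2 called 1 member, *ssr1*, beside 5.23% of all genes. Translocation genes were above 0 in 17 of 20 cases with a median log2 fold change of 0.11, coat genes in 11 of 19 with a median of 0.02, and all genes in 48.9% with a median of -0.008.

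All 4 TRAP genes had values above 0, between 0.21 and 0.34, in part through 1 library. The TRAP index was 0.535 in F1 control replicate 12 and -0.04 to 0.08 in the rest of that group. In F0 control it was -0.33 to 0.02. For *ssr4* the medians were 115 CPM in F0 control and 122 CPM in F1 control, with 189 CPM in F1 control replicate 12. *ssr1*, the alpha subunit of TRAP, was at 50.2, 52.5 and 59.5 CPM in F0 control and 60.5, 66.2 and 83.02 CPM in F1 control. It was the only member with no overlap between these groups (1 of 50 higher beside 0.963% of all genes, and 0 lower beside 1.36%), with a log2 fold change of 0.31 (edgeR adjusted p = 0.107, SE 0.0979). *sec61b*, the beta subunit of the channel, was at 61.3, 70.9 and 91.6 CPM in F0 control and 82.6, 93.7 and 99.1 CPM in F1 control, where only F0 control replicate 8 reached into the F1 range. Its log2 fold change was 0.32 (adjusted p = 0.128, SE 0.107), and without that replicate it was called (0.40, adjusted p = 0.0459).

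Of the others with small p, *ssr3* had a log2 fold change of 0.34 (adjusted p = 0.198, SE 0.135) and *tmed2* of 0.24 (adjusted p = 0.188, SE 0.0917), and *tmed8* was lower in F1, with -0.44 (adjusted p = 0.221, SE 0.185). In the same comparison acinar markers were above 0 for 13 of 13 genes (median 1.09), enterocyte markers for 0 of 7 (median -1.14) and macrophage and leukocyte markers for 1 of 6 (median -0.49). Without the 5 libraries over 500 CPM of enterocyte markers, 0 of 11588 genes were called by edgeR and 1238 had an unadjusted p under 0.05, while *ssr1* was at 0.31 and *sec61b* at 0.30. With the enterocyte score as a covariate these were at 0.29 and 0.31, and with the acinar score as a covariate the log2 fold change of *ssr1* was 0.26 and that of *sec61b* 0.29.

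**Figure D3:**
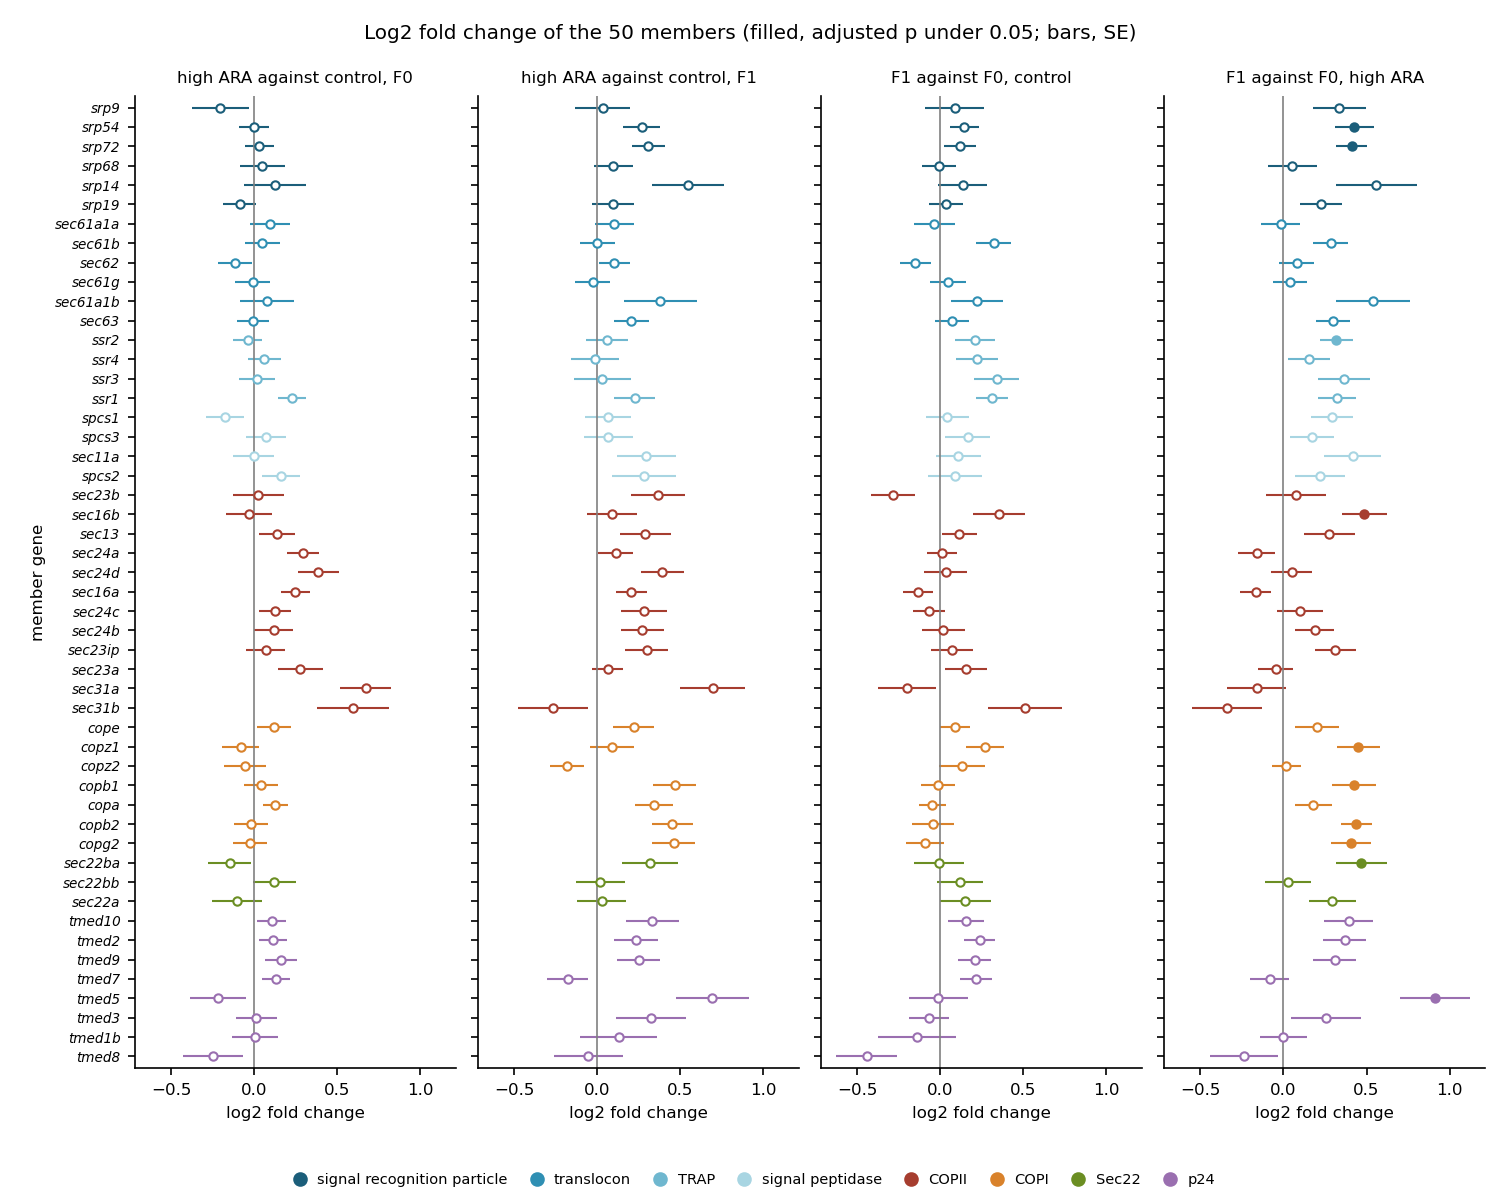
Log2 fold change of each member (points) with its SE (bars) in the 4 comparisons, coloured by class; filled points have an adjusted p under 0.05. Filled points occur only between F1 and F0 high ARA, where 10 members lie above 0, and COPII points lie above 0 for 11 of 12 genes in both diet comparisons.

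In edgeR's main test, with all libraries of a comparison and no covariate, called members appeared only between the high ARA groups of both generations. All were higher in the progeny. This comparison shares the F1 high ARA libraries with the F1 diet comparison and the F0 high ARA libraries with the F0 diet comparison. The F0 fish ate the high ARA feed and the F1 fish the control feed. Feed, age and generation thus differed together here and cannot be told apart. From F0 to F1 of the high ARA lineage, edgeR's quasi-likelihood test called 10 of 50 members (20.0%), all higher in F1, where 16.9% of 12150 genes were called, 8.41% as higher and 8.53% as lower. No member was called lower. The RefSeq counts, which come from the same reads and are not independent, called the same 10, beside 17.4% of 12436 genes. By class these were 2 of 6 signal recognition particle genes (*srp72*, *srp54*), 0 of 6 translocon genes, 1 of 4 TRAP genes (*ssr2*), 0 of 4 signal peptidase genes, 1 of 12 COPII genes (*sec16b*), 4 of 7 COPI genes (*copb2*, *copz1*, *copg2*, *copb1*), 1 of 3 Sec22 genes (*sec22ba*) and 1 of 8 p24 genes (*tmed5*).

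Of the signal recognition particle genes, *srp72* (chromosome 14, 1189726 to 1214547 in GRCz10) encodes a subunit that binds the RNA of the particle. It was at 27.1, 29.0 and 30.9 CPM in F0 high ARA, against 33.6, 37.8 and 44.7 CPM in F1 high ARA, without overlap. It rose with a log2 fold change of 0.41 (edgeR adjusted p = 0.00951, SE 0.0919). *srp54* (chromosome 17, 9918326 to 9933992) encodes the GTPase that binds the signal peptide. It was at 45.0, 48.9 and 61.9 CPM in F0 and 55.4, 68.7 and 80.8 CPM in F1, where only F0 high ARA replicate 18 reached the F1 range, and it rose by 0.43 (adjusted p = 0.0237, SE 0.117). The other members of the particle had values of 0.56 (*srp14*), 0.34 (*srp9*), 0.23 (*srp19*) and 0.05 (*srp68*).

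In the membrane, *ssr2* (chromosome 19, 11309619 to 11320723), the beta subunit of TRAP, was at 112, 122 and 141 CPM in F0 high ARA, against 136, 153 and 179 CPM in F1 high ARA. It rose by 0.32 (edgeR adjusted p = 0.0402, SE 0.0991), with overlap through F0 high ARA replicate 18. *sec61a1a*, the most abundant member, had a value of -0.02 (adjusted p = 0.935), while its paralog *sec61a1b* had 0.54 (adjusted p = 0.109, SE 0.223) without passing the test. The 4 signal peptidase genes were all above 0, from 0.17 to 0.42, and none passed.

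*sec16b* (chromosome 6, 23788299 to 23831633) was at 60.8, 86.5 and 98.6 CPM in F0 high ARA, against 93.6, 114 and 138 CPM in F1 high ARA, and it rose by 0.49 (edgeR adjusted p = 0.0274, SE 0.138). The groups overlapped through F0 high ARA replicates 17 and 18 and F1 high ARA replicate 16. Counting ignored strand, and the gene shares exon bases with *znf648* on the other strand, so its count is uncertain. The other COPII genes did not pass, and 5 of the 12 were below 0, among them *sec31a* (-0.16), *sec24a* (-0.16) and *sec31b* (-0.34). Their median was 0.06.

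For COPI, on the other hand, all 7 members were above 0 with a median of 0.40. Listed COPI genes outside the name rule, among them *arcn1a*, *arcn1b* and *arf1*, were above 0 for 7 of 9 tested. Their median was 0.11 and none was called. *copb2* (chromosome 2, 39031718 to 39049491) was at 59.11, 68.7 and 72.0 CPM in F0 high ARA, against 80.2, 89.6 and 103 CPM in F1 high ARA, without overlap, and rose by 0.44 (edgeR adjusted p = 0.00808, SE 0.0955), the smallest p of all members. *copz1* (chromosome 23, 36241717 to 36255303), the zeta subunit, was at 17.5, 18.96 and 22.4 CPM in F0 and 22.7, 25.2 and 36.8 CPM in F1, and rose by 0.45 (adjusted p = 0.0278, SE 0.128). These groups did not overlap either, and replicate 17 stood apart at 36.8 CPM.

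*copg2* (chromosome 4, 15984786 to 15997436) was at 30.6, 36.1 and 39.3 CPM in F0 high ARA, against 40.0, 44.4 and 62.8 CPM in F1 high ARA, again without overlap, and rose by 0.40 (edgeR adjusted p = 0.0342, SE 0.12). *copb1* (chromosome 7, 27531287 to 27549041) was at 50.2, 61.2 and 67.5 CPM in F0 and 62.1, 76.2 and 107 CPM in F1, and rose by 0.42 (adjusted p = 0.0385, SE 0.13) with overlap. *copb2*, *srp72*, *copz1* and *copg2* were the 4 members with no overlap, 4 of 50 higher beside 3.94% of all genes, and 0 lower beside 3.17%. The COPI genes *cope* (0.20), *copa* (0.18) and *copz2* (0.02) did not pass.

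Among the vesicle proteins *tmed5* (chromosome 20, 14893325 to 14910090) had the largest difference of all members. It was at 16.3, 20.5 and 24.2 CPM in F0 high ARA, against 21.4, 40.5 and 56.6 CPM in F1 high ARA, and rose by 0.91 on the log2 scale (edgeR adjusted p = 0.0123, SE 0.213), a fold of 1.88. F1 replicate 13 alone lay within the F0 range. *sec22ba* (chromosome 2, 10173122 to 10185841), a SNARE of traffic between the endoplasmic reticulum and the Golgi, was at 11.8, 13.1 and 15.7 CPM in F0 and 13.3, 17.2 and 27.2 CPM in F1, and rose by 0.47 (adjusted p = 0.0481, SE 0.153). It shares exon bases with *imp3* on the other strand. The p24 genes *tmed10* (0.39), *tmed2* (0.37) and *tmed9* (0.31) were above 0 without passing the test.

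**Figure D4:**
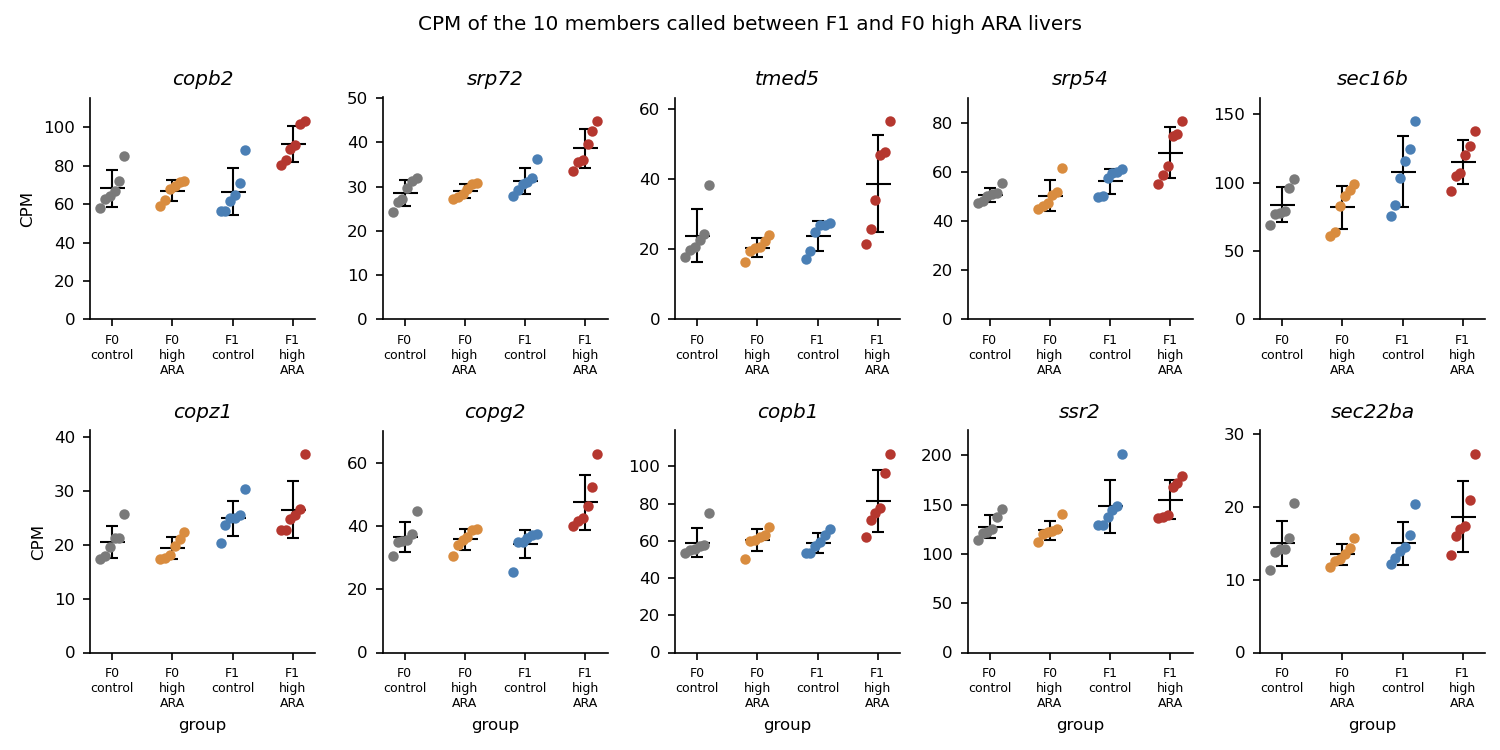
CPM of the 10 members called between F1 and F0 high ARA livers, in all 24 libraries by group (points, libraries; bars, mean and SD of 6 libraries; axes start at 0). For *copb2*, *srp72*, *copz1* and *copg2* every F1 high ARA point lies above every F0 high ARA point, and the highest points of *tmed5* reach 56.6 CPM.

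By class, translocation genes were above 0 in 19 of 20 cases with a median log2 fold change of 0.29, coat genes in 14 of 19 with 0.18, and vesicle proteins in 8 of 11 with 0.29, beside 50.5% and a median of 0.004 for all genes. The calls were sensitive to single libraries. Leaving out each in turn gave between 4 members called (without F0 high ARA replicate 13 or 16) and 11 (without F1 high ARA replicate 15). There were 6 without F0 high ARA replicate 14, 15 or 17 or F1 high ARA replicate 16 or 17. Of all genes, 11.5% to 15.6% were called in these fits. *copb2*, *srp72* and *tmed5* were called each time. Enterocyte markers differed between these groups as well: 0 of 6 tested were above 0, 3 were called lower in F1 and their median was -3.81. Of the macrophage and leukocyte markers 1 of 6 was above 0 and 2 were called lower (median -0.59), and of the genes of stress or handling 1 of 3 was above 0 and 1 was called lower (median -0.75); the part of these in the member values was not tested. With the enterocyte score as a covariate edgeR called 3 of 50 members, beside 10.4% of 12150 genes. These were *copb2* (0.39, adjusted p = 0.0359), *srp72* (0.41, adjusted p = 0.0285) and *tmed5* (0.98, adjusted p = 0.0235). Without the 3 F0 high ARA libraries that had over 500 CPM of enterocyte markers, a limit chosen after seeing the marker levels, 0 of 50 members and 561 of 12141 genes were called, with 3 F0 and 6 F1 libraries kept. The log2 fold changes were then 0.38 for *copb2*, 0.41 for *srp72*, 1.02 for *tmed5*, 0.45 for *copz1* and 0.32 for *sec16b*. Acinar markers were above 0 in 6 of 13 cases (median -0.01).

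**Figure D5:**
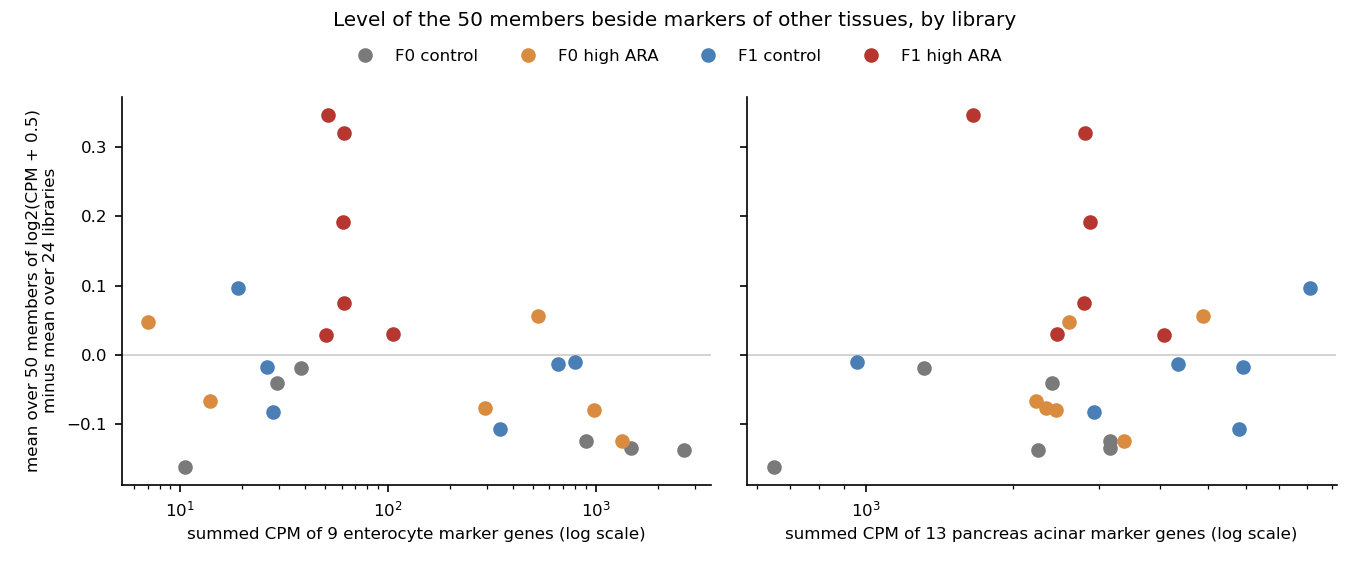
Mean over the 50 members of log2(CPM + 0.5), minus the mean over 24 libraries, against the summed CPM of 9 enterocyte markers and of 13 pancreas acinar markers (log scale), 1 point per library coloured by group. F1 high ARA points lie between 50.6 and 106 CPM of enterocyte markers, at 0.03 to 0.35. Libraries of the other groups lie outside that range, on both sides of it, at -0.16 to 0.10. The part of the markers in the member level was not tested.

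Whether the diet difference itself changed between the generations was tested by the interaction on all 24 libraries, and no member was called. edgeR called 0 of 50 members beside 0.117% of 11974 genes (0.0668% higher and 0.0501% lower). The value was above 0 for 40 of 50 members, beside 51.5% of all genes. At an unadjusted p under 0.05 there were 8 members, 6 with a larger high ARA difference in F1, and 1545 of all genes. DESeq2 called 0 members, beside 118 of 11974 genes. The largest value was that of *tmed5*, 0.92 (adjusted p = 0.206, SE 0.292). *copg2* had 0.49 (adjusted p = 0.221, SE 0.163), *copb2* 0.48 (adjusted p = 0.213, SE 0.155) and *copb1* 0.43 (adjusted p = 0.276, SE 0.163). The diet differences of these 3 COPI genes in the parents were between -0.02 and 0.04 and in the progeny between 0.45 and 0.47, but that they differed is not shown after adjustment. *sec31b* had the opposite sign, with -0.85 (adjusted p = 0.234, SE 0.292), from counts of 19.3 per library on average.

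Of 57 listed genes for the SRP receptor, oligosaccharyltransferase, translocon partners, the COPII GTPase, cargo receptors, the rest of COPI, KDEL receptors and tethers, 55 were matched and 53 tested between F1 and F0 high ARA. Of these, 1 was called higher and 0 lower, where 8.41% of all genes were called higher and 8.53% lower. The called gene was *mia3*, whose product helps to load bulky cargo into COPII vesicles in mammals, at 60.4 ± 8.23 CPM in F0 high ARA, against 80.1 ± 3.39 CPM in F1 high ARA (SD, n = 6 each), and differed by 0.40 on the log2 scale (edgeR adjusted p = 0.016, SE 0.1). Their median was 0.24 and 44 of 53 were above 0. In the other comparisons none was called, with medians of 0.08 in F0, 0.19 in F1 and 0.08 between the control groups.

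The oligosaccharyltransferase genes, which add sugar chains to entering proteins, were above 0 for 11 of 11 tested between F1 and F0 high ARA (median 0.31) and for 11 of 11 between the F1 groups (median 0.19), none called. Both chains of the SRP receptor were above 0 in these comparisons too. Of 31 tested luminal chaperones and stress regulators, 25 were above 0 between the F1 groups with a median of 0.40, again none called by edgeR. Among them *sdf2l1* had the largest value, 1.52 (edgeR adjusted p = 0.155, SE 0.546). The study, with DESeq2 on these libraries, listed the human orthologues CANX, EDEM1, DNAJB11 and CREB3L3 among its differing F1 genes. Only *creb3l3a*, a membrane-bound transcription factor of the endoplasmic reticulum, was called between F1 and F0 high ARA (1 of 31, beside 16.9% of all genes), and it fell by 1.11 on the log2 scale (adjusted p = 0.000432, SE 0.141).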

How the data were processed

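The authors counted single-end reads of each library per gene with featureCounts 1.5.0 after alignment with HISAT2 to GRCz10, on Ensembl and on RefSeq genes, without regard to strand and without multimapping or overlapping reads. The deposited values are raw counts. In each table, 12 count columns of other samples were not used. Ensembl genes took zebrafish symbols from the RefSeq gene that shared at least 50% of the exon bases of the shorter gene, or else from a gene name table (27728 genes named).

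Genes averaging 10 or more counts in the libraries compared were tested with edgeR 4.0.16 in R 4.3.3 (TMM, robust quasi-likelihood test), each comparison on its own 12 libraries and the interaction on all 24. P-values were adjusted by Benjamini-Hochberg over all genes tested and called below 0.05. The SE is the log2 fold change divided by the square root of F. CPM used TMM factors, and 0.5 CPM was added before logs. The test was checked on simulated counts of the high ARA libraries. These held no differences in tissue content between libraries, so the check does not cover the marker differences described above.

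The members and lists were chosen with earlier results of these data known. Named for their tests were called members, the 5 with the smallest p where fewer were called, *copb1*, *copb2* and *copg2*; others were named by level or after their values were seen. Alternatives were DESeq2 1.42.0, other scalings and filters, RefSeq counts, marker scores as covariates, 1 fit of all libraries, a replicate block and left-out libraries. Each replicate is a tank pool, so p-values measure the spread between pools. How parental crosses were spread over the F1 tanks is not stated, so F1 pools of a group may share parents.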

Additional observations from a re-analysis of the deposited data

Results flagged for a closer look

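Of 84 groups of 6 libraries examined, 9 held 1 library far from the other 5, judged by its gap to the nearest library relative to the range. Chance gives about 1 in 20 for independent groups. These groups were different genes in the same libraries and were not independent, so the 2 rates cannot be compared directly. In F0 control, replicate 10 was high for *copb1* (74.7 CPM, nearest 57.7) and *tmed5* (38.4 CPM, nearest 24.5). In F1 control, replicate 12 was high for *ssr1* (83 CPM, nearest 67.4), *ssr2* (201 CPM, nearest 149) and the summed level of all members (3080 CPM, nearest 2860), and replicate 11 was low for *copg2* (25.7 CPM, nearest 35.0). In F0 high ARA, replicate 13 was low for *sec24d* (35.5 CPM, nearest 46.1). In F1 high ARA, replicate 17 was high for *copz1* (36.8 CPM, nearest 26.7) and replicate 14 for *sec31b* (3.28 CPM, nearest 2.17).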

How the results depend on the processing

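The number of called members depended on the processing in 4 of the 5 comparisons. Percentages in brackets here are the shares of all genes called with the same setting. DESeq2 called 1 member in F0 (0.246%), 4 in F1 (5.22%), 1 between the control groups (5.23%) and 14 between the high ARA groups (20.3%). In F1, the enterocyte score as a covariate gave 1 called member (1.80%) and a fit of all 24 libraries 5 (2.91%). Leaving out libraries with over 500 CPM of enterocyte markers (chosen after seeing the data) gave 1 (0.745%). Between the high ARA groups the same settings gave 3 (10.4%), 15 (19.4%) and 0 (4.62%). Without 1 library at a time the member counts were 0 to 2 in F1 (0.682% to 2.51%) and 0 to 1 between the control groups (0.95% to 2.45%). Between the high ARA groups they were 4 to 11 (11.5% to 15.6%). In F0 (0% to 0.0165%) and in the interaction (0.0167% to 0.158%) the member counts stayed at 0 in these fits. The replicate block gave 6 called members between the high ARA groups (12.7%). Same-numbered libraries did not vary together (correlations of -0.36 to 0.27, own number best in 2 of 12), and the diet groups share no numbers. Values near 0 changed sign. With the acinar score as a covariate *copb2* in F0 was 0.0118, and between the control groups *copb1* was 0.0446 and *copb2* 0.0859. Without 1 library at a time *copb2* in F0 was -0.0600 to 0.0575 and *copg2* -0.0692 to 0.0472, and between the control groups *copb1* was -0.0467 to 0.0595 and *copb2* -0.143 to 0.0216. Scaling by library totals alone moved the median of all F1 genes to 0.13 and the share of higher calls from 48.2% to 72.5%, and the members' median there was 0.34; between the control groups the share went from 32.4% to 23.3%. The causes were not tested. At 5144880 counts in the smallest library, *sec31b*, *tmed1b* and *tmed8* rest on few reads.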
